A study of Rattus norvegicus with 14 samples.

Results

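Gad1, Gad2 and Slc17a6 are 3 marker genes that tell inhibitory from excitatory neurons of the hypothalamus. They were picked by Ensembl rat gene ID (ENSRNOG00000000007, ENSRNOG00000018200 and ENSRNOG00000016147), 3 of the 32623 genes in the deposited table, and all 3 were found in it. The symbols came with that list of IDs, because the table itself gives no symbols. The tissue was the supraoptic nucleus (SON) of Sprague Dawley males (250 to 300 g) with free access to food and water, cut with a 1 mm punch from 100 µm frozen coronal sections. Every rat had received an adeno-associated virus in the nucleus by stereotaxic injection. In the control group (miCtl, 7 libraries) the virus carried a control microRNA, and in the knockdown group (miRasd1, 7 libraries) a microRNA directed at Rasd1, which encodes a Ras-related small G protein. The animals were euhydrated, that is, in normal water balance. The promoter that drove the microRNA and the cells it reached are not given in the labels, and Rasd1 itself, which carries no symbol in the table, was not checked. The titles number the libraries 1, 2, 3, 4, 8, 11 and 12 in both groups, and libraries of equal number are treated as a pair. Whether equal numbers mark 1 rat is not stated in the labels, and every p-value here refers only to variation from punch to punch, which may be technical.

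GABA is the main inhibitory transmitter of the hypothalamus and is made from glutamate by glutamate decarboxylase. Gad1 encodes the form GAD67, which is found through the cell and makes most of the basal GABA, and Gad2 encodes GAD65, which is enriched at nerve endings, where it supplies GABA for release. Slc17a6 encodes VGLUT2, the transporter that loads glutamate into synaptic vesicles and the usual marker of glutamate neurons in the hypothalamus. The magnocellular neurons of the SON, which release vasopressin and oxytocin, are known to express Slc17a6, whereas GABA neurons lie mostly in the zone around the nucleus. The labels do not say how much of that zone each punch took. In a bulk sample, more cells of a type and more mRNA per cell cannot be told apart.

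The start regions of the 3 genes are shown as background. Whether their sequence bears on how the genes varied across libraries was not tested. The sequences are from RefSeq (build GRCr8), 5′ to 3′ on the plus strand, from 250 bases before to 50 bases after the start used there. Gad1 lies at chr3:75777202-75777501, Gad2 at chr17:89671468-89671767 and Slc17a6 at chr1:110348197-110348496. The Gad1 window lies mostly inside the annotated gene, because it is placed on a later transcript start than the gene's first base. The Gad2 and Slc17a6 windows reach into their genes only by their last 50 bases. Capitals mark a TATA box (TATAAA) or a GC box (GGGCGG or its complement CCGCCC).
Gad1: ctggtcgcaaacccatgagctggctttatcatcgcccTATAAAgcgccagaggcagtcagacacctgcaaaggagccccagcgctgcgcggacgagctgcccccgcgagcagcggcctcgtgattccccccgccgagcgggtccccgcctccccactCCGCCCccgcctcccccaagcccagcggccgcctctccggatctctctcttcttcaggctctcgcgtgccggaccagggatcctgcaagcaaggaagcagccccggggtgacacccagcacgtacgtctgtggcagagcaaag
Gad2: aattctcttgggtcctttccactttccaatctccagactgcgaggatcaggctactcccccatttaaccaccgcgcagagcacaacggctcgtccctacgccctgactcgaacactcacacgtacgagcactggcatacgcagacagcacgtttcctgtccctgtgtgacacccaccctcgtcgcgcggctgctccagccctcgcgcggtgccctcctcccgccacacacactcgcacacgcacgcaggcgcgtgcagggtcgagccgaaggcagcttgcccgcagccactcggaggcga
Slc17a6: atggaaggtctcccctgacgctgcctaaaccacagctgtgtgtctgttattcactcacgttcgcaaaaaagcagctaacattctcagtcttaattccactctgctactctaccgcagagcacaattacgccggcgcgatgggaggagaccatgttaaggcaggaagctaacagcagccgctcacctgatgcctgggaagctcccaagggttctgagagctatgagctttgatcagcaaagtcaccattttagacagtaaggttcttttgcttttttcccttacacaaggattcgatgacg
A search of both strands found 1 TATAAA and 1 GC box in the Gad1 window, beginning at its bases 38 and 158. The former is at position −213 from the later start on which the window is placed. The annotated gene begins at chr3:75777260, so the TATAAA lies shortly before its first base and the GC box inside the gene. Neither motif was in the Gad2 or the Slc17a6 window. Of 33469 rat windows of the same length, 14.2% hold TATAAA and 33.1% hold the GC box. E-box letters (CANNTG) were present 1 time in Gad1, 2 times in Slc17a6 and 0 times in Gad2, against 72.1% of all windows with at least 1. The cyclic AMP element TGACGTCA and the homeodomain core TAATTA, held by 1.83% and 5.36% of windows, were in none of the 3. The GC content was 67.7% in the Gad1 window, 63.7% in Gad2 and 49.0% in Slc17a6, against a median of 51.7% over all windows. Of all windows, 88.4% had a lower GC content than Gad1, 81.5% than Gad2 and 39.8% than Slc17a6. The Gad1 window covers a different stretch around the gene's first base than the others, which limits this comparison. These are letter matches, not binding sites.

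The recovered depth was 19968058 to 28345441 reads per library, and library miRasd1 11 was the deepest. All 3 markers were abundant, with at least 3444 reads in every library, so counting error was small. By mean level Gad2 ranked 254th, Gad1 501st and Slc17a6 1021st of the 15178 genes tested. These ranks are not corrected for transcript length, and levels are not compared between the genes. Values below are normalised read counts, that is, reads divided by a size factor for the library.

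Among the GABA markers, Gad1 ranged in miCtl from 5046 (library 1) through a median of 6018 to 8469 normalised reads (library 12). In miRasd1, Gad1 ranged from 5148 (library 2) through a median of 5731 to 8830 (library 8). The groups overlapped almost completely, and a single library stood above the rest in each of them. Mean Gad1 was 6254 ± 1091 for miCtl and 6215 ± 1276 for miRasd1 punches (SD, n = 7 each). The log2 difference of miRasd1 from miCtl was −0.01 (SE 0.12), with a 95% interval from −0.26 to 0.23, that is, 0.836-fold to 1.17-fold. It did not pass the test (limma, Benjamini-Hochberg adjusted over all 15178 genes, adjusted p = 0.991; exact permutation p = 0.907). Gad1 was higher in miRasd1 in 3 of 7 pairs and lower in 4, and the sign of its mean difference turned when library 12 of miCtl or library 2, 3, 4 or 11 of miRasd1 was left out (up to 0.061).

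Gad2 ranged in miCtl from 8333 (library 1) through a median of 10179 to 13298 normalised reads (library 12). In miRasd1 it ranged from 7853 (library 3) through a median of 9094 to 14402 (library 8). The highest library was thus the same as for Gad1 in both groups. Means were 10399 ± 1509 for miCtl and 9686 ± 2205 for miRasd1 punches (SD, n = 7 each), and 5 of 7 pairs had the lower value in miRasd1. The log2 difference was −0.12 (SE 0.11; 95% interval −0.36 to 0.12, or 0.780-fold to 1.09-fold), with a limma adjusted p of 0.810 and an exact permutation p of 0.402. Without library 8 of miRasd1 the Gad2 difference was −0.22, still short of the threshold (limma adjusted p = 0.273). Without both libraries of number 8 and with the number as a block, it was −0.21 (limma adjusted p = 0.0642).

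Slc17a6, the glutamate marker, was even across miCtl punches. It ranged there from 3738 (library 1) through a median of 3889 to 4260 normalised reads (library 3). In miRasd1 the lowest library was 8 with 3279, the median was 3654, and the highest was library 3 with 5270. The miRasd1 values fell on both sides of the whole miCtl range: libraries 1, 3 and 12 were above every miCtl library, and libraries 2, 4, 8 and 11 below every one. Means were nevertheless close, 3937 ± 189 for miCtl and 3992 ± 727 for miRasd1 punches (SD, n = 7 each). The log2 difference was 0.00 (SE 0.09; 95% interval −0.18 to 0.18, or 0.883-fold to 1.14-fold; limma adjusted p = 0.998, exact permutation p = 0.987). With a difference this near 0, leaving out library 1, 2, 4 or 8 of miCtl or 1, 3 or 12 of miRasd1 turned its sign (down to −0.068).

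**Figure D1:**
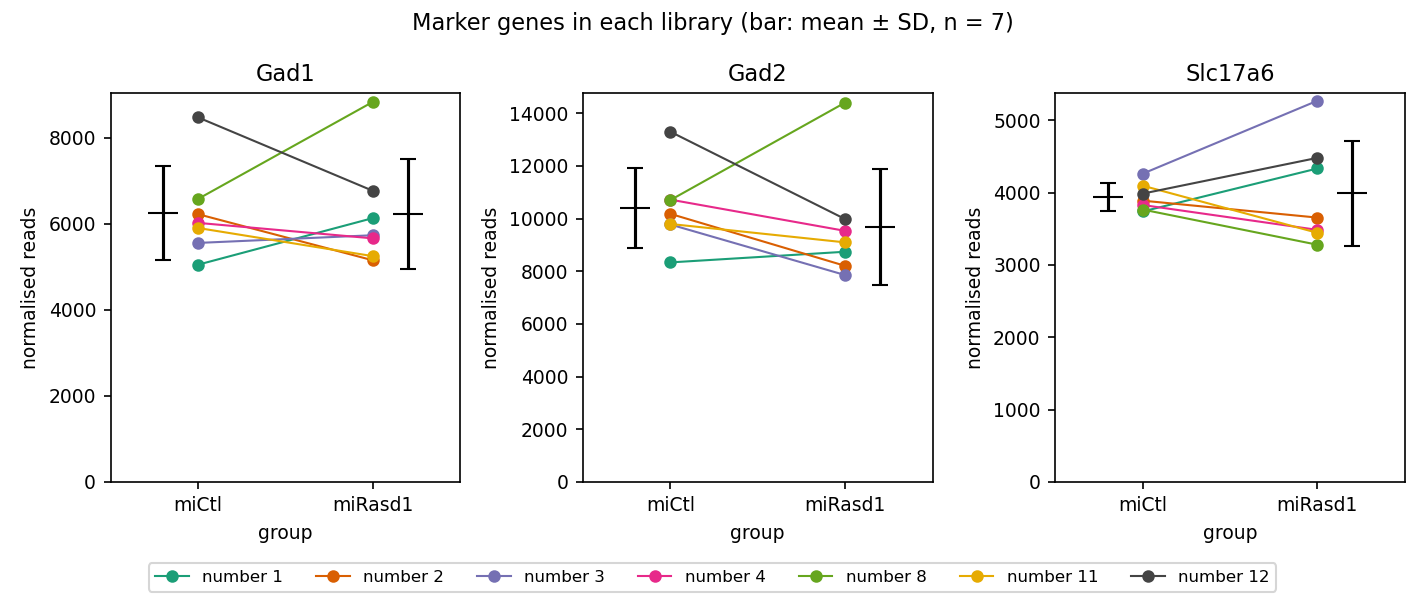
Normalised reads of Gad1, Gad2 and Slc17a6 (vertical axes, from 0) in the miCtl and the miRasd1 group; each point is a library, lines join libraries of equal number, and bars give the mean ± SD (n = 7). Library miCtl 12 and library miRasd1 8 were highest for both Gad genes (8469 and 8830 normalised reads of Gad1), and Slc17a6 was spread from 3279 to 5270 in miRasd1 against 3738 to 4260 in miCtl.

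None of the 3 markers was called, against 0.145% of all tested genes in the same test (22 of 15178). With the library number as a block, 150 genes were called, 0.988%, and again none of the markers (limma adjusted p of 0.963 for Gad1, 0.550 for Gad2 and 0.994 for Slc17a6). Every miRasd1 library lay on 1 side of every miCtl library in 0.349% of tested genes, but all 3 markers overlapped between groups. The block narrowed the intervals to between 0.879-fold and 1.11-fold for Gad1, 0.816-fold and 1.04-fold for Gad2, and 0.909-fold and 1.10-fold for Slc17a6. Values in the authors' deposited table were of the same size, with log2 fold changes of −0.01 for Gad1, −0.10 for Gad2 and 0.02 for Slc17a6 and adjusted p of 0.997, 0.892 and 0.993. These intervals are not limits of detection. They give the differences that the values of 7 punches a group leave possible, with no adjustment over genes.

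**Figure D2:**
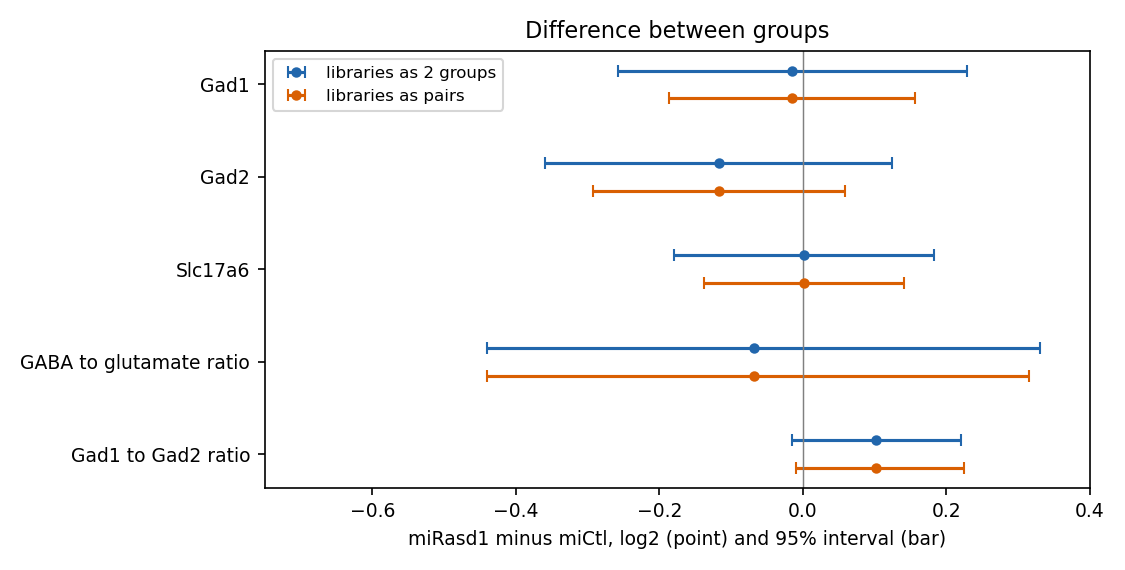
Difference of miRasd1 from miCtl on the log2 scale (horizontal axis) with its 95% interval, for the 3 marker genes and for 2 ratios of markers. Libraries are taken as 2 groups or as pairs. Intervals of the genes are from limma, without or with the number as a block. Those of the ratios are from exact permutation for groups and exact sign-flip permutation for pairs. All intervals shown include 0, and those of the ratio of Gad1 to Gad2 come closest to leaving it out.

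The balance of GABA and glutamate markers was read as a ratio within each library, which does not depend on the size factor. It is the mean of log2(Gad1 + 1) and log2(Gad2 + 1) minus log2(Slc17a6 + 1), given here as a fold. Its absolute size depends on transcript lengths, so it is used only to compare libraries. In miCtl the ratio ranged from 1.73 (library 3) through a median of 2.05 to 2.66 (library 12). In miRasd1 it ranged from 1.27 (library 3) through a median of 1.83 to 3.44 (library 8). The most GABA-weighted and the least GABA-weighted punch of the series were thus both miRasd1 libraries, 2.70-fold apart. On the log2 scale the ratio was 1.02 ± 0.22 for miCtl and 0.95 ± 0.43 for miRasd1 punches (SD, n = 7 each), a difference of −0.07 (95% interval −0.44 to 0.33, exact permutation p = 0.728). By pair, the ratio in miRasd1 over that in miCtl was 0.974-fold in pair 1, 0.869-fold in pair 2, 0.736-fold in pair 3, 1.00-fold in pair 4, 1.54-fold in pair 8, 1.08-fold in pair 11 and 0.689-fold in pair 12. It was higher in 3 of 7 pairs and lower in 4 (exact sign-flip permutation p = 0.672 over 7 pairs), with pair 8 moving furthest up and pair 12 furthest down. Without library 3 of miRasd1 the mean difference changed sign, to 0.033, and without pair 12 to 0.011.

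The ratio of Gad1 to Gad2 within a library varied much less. Gad1 normalised reads were 56.2% to 63.7% of those of Gad2 in miCtl (median 60.6%) and 57.7% to 73.0% in miRasd1 (median 62.8%). Libraries 1, 3 and 12 of miRasd1, at 70.1%, 73.0% and 67.8%, were above every miCtl library, and the other 4 lay inside the miCtl range. The difference was 0.10 on the log2 scale (95% interval −0.02 to 0.22, higher in 5 of 7 pairs). It did not pass the exact permutation test (p = 0.0897, or 0.449 after adjustment over the 5 quantities compared; exact sign-flip permutation p = 0.0938). Without library miRasd1 11 the exact permutation p was 0.0344 before adjustment.

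**Figure D3:**
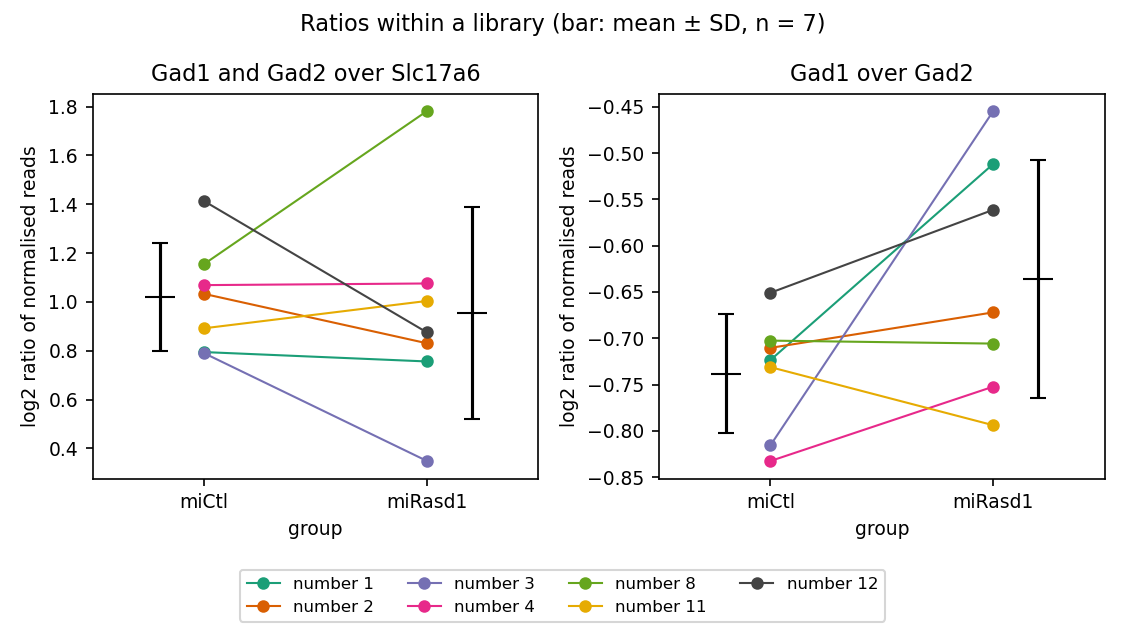
Log2 ratio of Gad1 and Gad2 to Slc17a6 (left) and of Gad1 to Gad2 (right) in each library of the 2 groups, with lines between libraries of equal number and bars for the mean ± SD (n = 7); the vertical axes do not start at 0. Pair 8 rose and pairs 3 and 12 fell on the left (1.54-fold, 0.736-fold and 0.689-fold), and pairs 1 and 3 rose most on the right.

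Pooled over the 2 groups, the 3 markers varied more between punches of a group than most abundant genes. Within groups, the SD of Gad1 was 0.25 on the log2 scale, that of Gad2 0.25 and that of Slc17a6 0.18. Counting error alone would give 0.01 to 0.02. Among the 4957 abundant genes (mean level of 1000 normalised reads or more), the median SD was 0.09, and 97.6% of these genes varied less than Gad1, 97.5% less than Gad2 and 93.4% less than Slc17a6. Slc17a6 was spread more widely in miRasd1 than in miCtl, where its SD did not exceed the pooled median of the abundant genes. Its SD on the log2 scale was 0.07 in miCtl and 0.25 in miRasd1, a ratio of 3.68, and 0.468% of the 15178 tested genes had a higher ratio (median 1.10). Leaving out any pair kept the SD ratio of Slc17a6 between 3.50 and 4.05. This comparison was chosen after the values were seen. An exact permutation test of the absolute deviations from the group median gave p = 0.0414, or 0.207 after adjustment over 5 quantities, and an exact sign-flip permutation test over pairs 0.0313, or 0.156 adjusted, so it did not pass the threshold. For Gad1 and Gad2 the SD ratios were 1.15 and 1.43 (exact permutation p = 0.777 and 0.686). They rested on single pairs: the ratio for Gad1 was 0.577 without pair 8 and 2.14 without pair 12, and for Gad2 0.591 and 2.36.

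**Figure D4:**
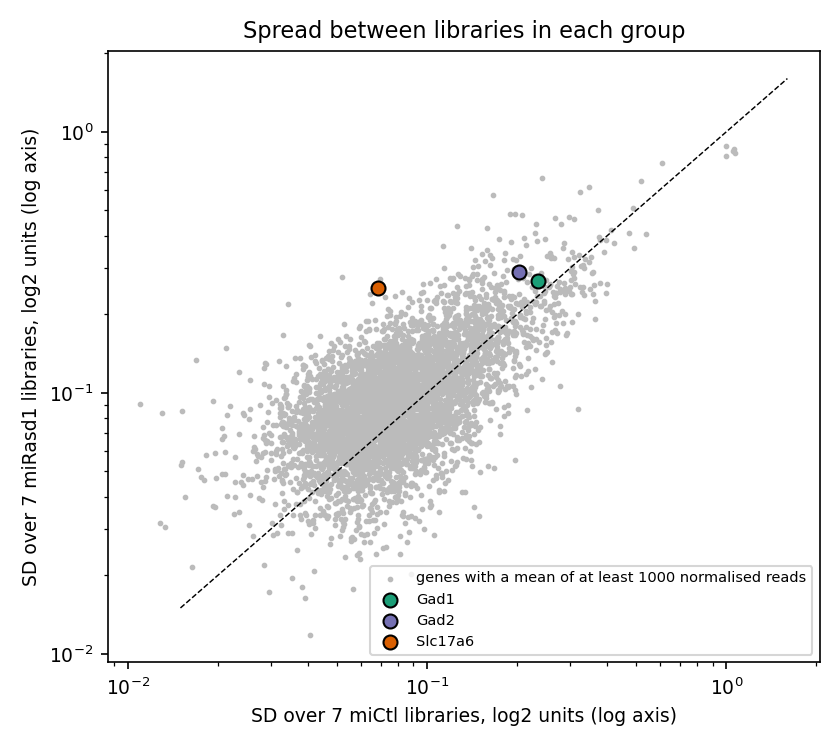
SD over the 7 miCtl libraries (horizontal) against SD over the 7 miRasd1 libraries (vertical), log2 units on log axes, for the 4957 abundant genes, at 1000 normalised reads or more on average (grey) and the 3 markers; the dashed line marks equal spread. Gad1 and Gad2 lie near the line among the more variable genes, and Slc17a6 lies well above it, at 0.07 and 0.25.

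Whether libraries of equal number resembled each other in these markers was examined over the 7 pairs. Pearson's r between the miCtl and the miRasd1 library was 0.38 for Gad1, 0.35 for Gad2, 0.54 for Slc17a6 and 0.45 for the GABA to glutamate ratio. Spearman's rho was 0.29, 0.71, 0.39 and 0.71 in the same order. None of these passed an exact permutation test (n = 7 pairs, p = 0.356, 0.360, 0.215 and 0.289 for r, adjusted p = 0.450 for each; p = 0.556, 0.0881, 0.396 and 0.0881 for rho). Without the 2 pairs farthest from the median of the miCtl values, r was 0.64 for Gad1, 0.69 for Gad2, 0.37 for Slc17a6 and 0.75 for the ratio. The share of the within-group variance that lay between pairs was 0.376 for Gad1, 0.333 for Gad2, 0.273 for Slc17a6 and 0.368 for the GABA to glutamate ratio. For the Gad1 to Gad2 ratio it was 0.011, with r = 0.01 (exact permutation p = 0.978, adjusted 0.978) and rho = 0.14 (p = 0.783). Pairs 8 and 12 had the highest pair means of both Gad genes, but by opposite members, since miRasd1 was the higher library in pair 8 (1.34-fold for Gad1, 1.35-fold for Gad2) and miCtl in pair 12 (0.799-fold and 0.750-fold).

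Gad1 and Gad2 moved together from punch to punch. Over the 14 libraries, centred within groups, r between them was 0.92, given as a description because libraries come in pairs and share the size factor within a library. Libraries miCtl 12 and miRasd1 8 were the highest of their groups in both Gad genes, and this r was not computed without them. Of the 15177 other tested genes, Gad2 was the fifth most like Gad1 by this measure, and Gad1 the fifth most like Gad2. The gene most like either of them was ENSRNOG00000047574 (r = 0.97 with Gad1 and 0.95 with Gad2), whose level was 2950 ± 396 for miCtl and 2837 ± 476 for miRasd1 punches (normalised reads, SD, n = 7 each). Slc17a6 shared this pattern with neither, with r = −0.10 to Gad1 (rank 8729) and −0.42 to Gad2 (rank 12670). The gene most like Slc17a6 was ENSRNOG00000014050 (r = 0.92), whose level was 675 ± 17.5 for miCtl and 687 ± 58.0 for miRasd1 punches (normalised reads, SD, n = 7 each). A correlation of at least 0.8 linked Gad1 to 119 genes (0.784% of the others tested), Gad2 to 93 (0.613%) and Slc17a6 to 76 (0.501%). The median over all tested genes was 22, and 90.1% of them had fewer links than Gad1, 85.1% than Gad2 and 80.5% than Slc17a6. Genes were not matched for level here, so these shares do not set the markers apart from other abundant genes. Of the linked genes, 46 were shared by Gad1 and Gad2, 38.7% and 49.5% of the respective lists, while Slc17a6 shared 0 with either. That 0 follows from r = −0.10 and −0.42, because a gene at 0.8 or more with each of a pair forces a positive r between them. It is therefore no further evidence that Slc17a6 varied apart from the Gad genes. Nor is the overlap of Gad1 and Gad2 evidence separate from their r of 0.92.

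The differences within pairs gave the same picture for the 2 Gad genes, but the test result depended on single pairs. Over the 7 differences of miRasd1 from miCtl, r between Gad1 and Gad2 was 0.88 (exact permutation p = 0.00694, adjusted 0.0208 over 6 relations) and rho 0.75 (p = 0.0663, adjusted 0.199), with the same sign in 6 of 7 pairs. Without pairs 8 and 1, the 2 farthest from the median, r fell to 0.34. Dropping the extreme pairs narrows the range, which can itself lower r, so this fall does not show which pairs carry the relation. Without pair 1 alone r was 0.88, and without pair 8 alone 0.75. Leaving out pair 1, 2, 4, 8 or 12 alone kept r at 0.75 to 0.88 but ended the call (exact permutation, adjusted p from 0.0708 to 0.217). Between the Gad genes and Slc17a6, r over these differences was 0.03 for Gad1 (exact permutation p = 0.934, adjusted 0.934; rho 0.04, p = 0.963) and −0.41 for Gad2 (exact permutation p = 0.376, adjusted 0.564; rho −0.50, p = 0.267). Without 2 pairs these were 0.28 and 0.02. The other 3 of the 6 relations were computed over pair means. No r over all 7 pair means is given, because pairs 8 and 12 formed a cluster apart from the other 5 in both Gad genes. Within those 5 pairs r between Gad1 and Gad2 was 0.75, and 5 values are too few for a test here.

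**Figure D5:**
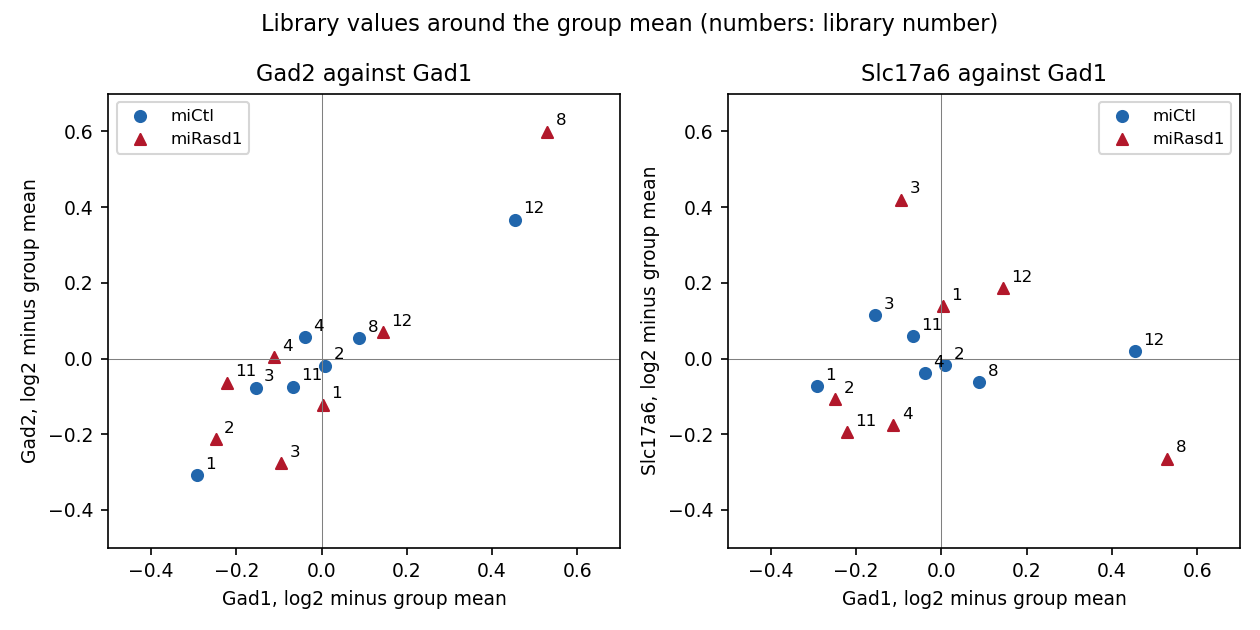
Deviation of each library from its group mean, on the log2 scale, of Gad2 (left) and Slc17a6 (right) against Gad1, with miCtl as circles, miRasd1 as triangles and the library number beside each point. Gad1 and Gad2 rise along 1 line with miCtl 12 and miRasd1 8 at its top (r = 0.92), whereas Slc17a6 shows no such line (r = −0.10).

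The marker levels of each library were also entered as covariates in the test across all genes, a setting chosen after the data were seen. With the GABA to glutamate ratio as a covariate, limma called 49 genes (44 higher and 5 lower in miRasd1) in place of 22, and with the mean of the Gad genes and Slc17a6 as 2 covariates it called 208 (176 and 32). Each of these sets included all 22 genes called without a covariate. With the library number as a block, the ratio as a covariate gave 267 calls in place of 150. Counts of calls in these data depend strongly on single libraries, with 0 to 486 calls in fits without a covariate that dropped 1 library or 1 pair, and calls with covariates were not rerun without single libraries.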

How the data were processed

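Poly(A) libraries from single punches were sequenced, per the labels' protocols. Tools named in the submitters' processing notes are STAR, featureCounts, DESeq2 and FastQC. Their versions, the build and the strand option are not given in these sources. Per the file headers, the deposited table is DESeq2 output: a signal value per gene and library (reads over a size factor), the authors' log2 fold change and SE, their test score, and p-values before and after adjustment. Dividing by the smallest step gave whole reads for 100% of values (tolerance 0.001).

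The main test was limma-trend (limma 3.58.1) on log2(value + 1), run over the 15178 genes that reached 10 normalised reads in 7 or more libraries, with a threshold of 0.05 after Benjamini-Hochberg adjustment. The added 1 hardly matters at these levels. edgeR 4.0.16, DESeq2 1.42.0 and limma-voom on recovered reads, other pseudocounts, scalings and filters, a replicate block and leaving out libraries or pairs were alternatives. For single values, groups of 7 and 7 libraries were set against each other by exact permutation (two-sided, smallest p 0.000583), and the 7 pairs by exact sign-flip permutation (two-sided, smallest p 0.0156). Intervals of the ratios came from inverting these tests.

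Equal numbers were taken as pairs in advance, from the titles. As a check, over all tested genes, deviations from the group mean correlated at 0.20 to 0.40 for equal numbers and −0.23 to 0.14 for others. All 7 miCtl libraries were closest to the miRasd1 library of their own number. Libraries of equal number thus deviated together, which the main test leaves out and the fits with a block and the sign-flip tests take in. No library was a copy of another (smallest chi-square per degree of freedom 5.00 over 91 combinations). Named genes are the 3 markers and, for each, the gene with the highest group-centred r. The RefSeq table of 47357 rat genes (GRCr8) holds 0 Ensembl IDs and was matched by symbol for the 3 markers. Other neuronal, glial and SON genes listed for testing could not be looked up and were not tested. The members and lists were chosen with earlier results of these data known.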

Additional observations from a re-analysis of the deposited data

Results flagged for a closer look

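Library miRasd1 8 held 14402 normalised reads of Gad2, far from the other 6 of its group, which ran from 7853 to 9979. The gap between it and the next library made up 0.675 of the range of its group, where 0.568 is the 95% limit for 7 values. Gad1 of the same library (8830 normalised reads, gap 0.561) and of miCtl 12 (8469, gap 0.554) came just short of that limit. In depth, library miRasd1 11 stood apart with 28345441 reads, at a gap of 0.586. Among 12 sets of 7 values examined in this way 2 passed the limit, and chance gives about 1 in 20.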

How the results depend on the processing

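No alternative brought Gad1, Gad2, Slc17a6 or the GABA to glutamate ratio past the threshold, in 39 settings for each gene (adjusted p from 0.0642) and 27 for the ratio (p from 0.157). The replicate block changed no call of a marker. Slc17a6 differed by −3.44e-05 in limma-voom, against 0.0018 in the main test. Leaving out a library or a pair, with and without the block, moved the difference over −0.10 to 0.061 for Gad1, −0.22 to −0.056 for Gad2, −0.068 to 0.046 for Slc17a6, −0.21 to 0.033 for the GABA to glutamate ratio and 0.059 to 0.13 for the Gad1 to Gad2 ratio, which passed an unadjusted 0.05 only without miRasd1 11. Without a pair, r between equal numbers was −0.013 to 0.76 for Slc17a6 and −0.35 to 0.52 for the Gad1 to Gad2 ratio. Over within-pair differences r was 0.75 to 0.95 for Gad1 and Gad2, weaker as Spearman's rho (0.75, adjusted p = 0.199), and −0.20 to 0.47 for Gad1 and Slc17a6.

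Genes called numbered 22 (21 higher, 1 lower) without a block. Limma with the replicate block gave 150 (119 and 31), edgeR with the replicate block 139 (113 and 26), DESeq2 172 (133 and 39) and limma-voom 8 (8 and 0). edgeR on DESeq2 size factors had 0 lower. The ratio covariate gave 49 (44 and 5), 267 (196 and 71) with the replicate block, and both covariates 208 (176 and 32). Leaving out a library or pair gave 0 to 486 (0 to 309 higher, 0 to 177 lower). The cause was not tested.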

Other observations

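Slc17a6 and the ratio of Gad1 to Gad2 set apart the same miRasd1 libraries, a pattern looked at after the values were seen and given as values, with no test. Libraries 1, 3 and 12 of miRasd1 lay above every miCtl library in Slc17a6 (4333, 5270 and 4480 normalised reads). They also lay above every miCtl library in Gad1 as a share of Gad2 (70.1%, 73.0% and 67.8%). The other 4 miRasd1 libraries were below every miCtl library in Slc17a6 and inside the miCtl range in that share. The miCtl libraries did not show the pattern. Libraries 3, 11 and 12 were highest there in Slc17a6 (4260, 4096 and 3985 normalised reads). Their Gad1 shares of 56.8%, 60.2% and 63.7% spanned most of the miCtl range. Within pairs, the log2 difference of Slc17a6 was 0.17 to 0.31 in pairs 1, 3 and 12 and −0.25 to −0.09 in the rest. The log2 difference of the Gad1 to Gad2 ratio was 0.09 to 0.36 in pairs 1, 3 and 12 and −0.06 to 0.08 in the rest. The ratio holds no Slc17a6 reads and does not depend on the size factor. No correlation is given, because the values of Slc17a6 fall into clusters of 3 and 4.

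The markers were also compared with the main axes of variation of the punches. After centring within groups, the first 3 principal components of all tested genes held 16.7%, 13.5% and 11.4% of the variance. Across the 14 libraries, as a description, the second component correlated with Slc17a6 at −0.78, with Gad2 at 0.61 and with Gad1 at 0.33. Its ends were miRasd1 3 and miRasd1 8, the punches with the lowest and the highest GABA to glutamate ratio. The third component correlated with Gad1 at 0.67, with Gad2 at 0.62 and with Slc17a6 at 0.03. The first was only loosely related to the markers (0.42 with Gad1, 0.37 with Gad2 and 0.25 with Slc17a6).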
